A study of Homo sapiens with 18 samples.

Results

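Unstimulated β-arrestin1/2 KO cells were compared with unstimulated wildtype cells by RNA-Seq, using the 3 basal libraries of each line, 6 of the 18 libraries of the series. Both lines are HEK293, a line derived from human embryonic kidney, and the β-arrestin1/2 KO line had ARRB1 and ARRB2 targeted with CRISPR-Cas9 in earlier work. All 6 cultures, like the other 12, were transfected with an HA-tagged receptor plasmid and starved of serum overnight, and the 6 were given vehicle for 1 h at 48 h after transfection. The other groups were isoproterenol (ISO)-stimulated wildtype and β-arrestin1/2 KO cells (1 μM for 1 h) and basal and ISO-stimulated Gαs KO cells, with 3 libraries each. Whether the KO line is 1 clone is not given in the sources used here, so the edit and the history of the line cannot be told apart in any difference below.

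β-Arrestins bind agonist-occupied, phosphorylated G protein–coupled receptors, block further coupling to G proteins and link the receptors to clathrin and the AP-2 adaptor for internalization. They also hold kinases of the ERK cascade and others near the receptor. HEK293 cells express neuronal intermediate filaments beside simple-epithelial keratins, and sublines of HEK293 are known to differ in chromosome copy number.

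Values are deposited expected counts summed to genes and scaled between libraries by edgeR's TMM method ("normalized counts" below). The 6 basal libraries held 18433424 to 25019834 counts, so that a gene at 200 normalized counts rested on about that many read pairs per library. A gene was called when the Benjamini–Hochberg adjusted p of edgeR's quasi-likelihood test, fitted on all 18 libraries, was under 0.05, and every adjusted p below is from that test. Wildtype basal 1 stood apart. The mean GC content of its counted transcripts was 52.489%, against 49.153 and 49.632% in wildtype basal 2 and 3 and 49.765 to 50.105% in the β-arrestin1/2 KO basal libraries. Its counts differed from those of wildtype basal 2 and 3 with a chi-square per degree of freedom of 132 and 104, against 7.72 to 13.60 for the other replicate pairs of the 2 groups. Counts of calls and of list members are therefore also given without it. Of 14 marker genes of HEK293 and kidney lines 13 passed the filter on low counts, with VIM at a mean of 17270 and NEFL at 1767 normalized counts in wildtype cells.

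The targeted genes were read first. ARRB2 (ENSG00000141480, chr17:4710489-4721499), which encodes β-arrestin2, had 441, 407 and 345 normalized counts in the β-arrestin1/2 KO libraries and 2523, 1561 and 1592 in the wildtype libraries. The groups did not overlap, and the highest wildtype value was that of wildtype basal 1. ARRB2 was 4.76-fold lower (log2 difference −2.25 ± 0.15 SE, adjusted p = 2.6e-08), or −1.98 on the log2 scale without wildtype basal 1. Its main transcript ARRB2-201 was at 14.7% of the wildtype level and ARRB2-216 at 20.7%. ARRB1 (ENSG00000137486, chr11:75264182-75351705), which encodes β-arrestin1, had 800, 725 and 832 against 1250, 736 and 859 normalized counts. The ARRB1 groups overlapped, and the log2 difference was −0.27 ± 0.14 SE (adjusted p = 0.14) and −0.02 without wildtype basal 1. The call on ARRB1 depended on 1 library, since without wildtype basal 2 the log2 difference was −0.42 (adjusted p = 0.013). Its transcript ARRB1-201 had 188, 211 and 174 normalized counts in KO against 454, 244 and 269 in wildtype libraries, or 59.3% of the wildtype level. The more abundant ARRB1-202 was at 94.7%. Single transcripts were not tested. The position of the edits is not given in the sources used here, and transcript levels do not show protein.

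**Figure D1:**
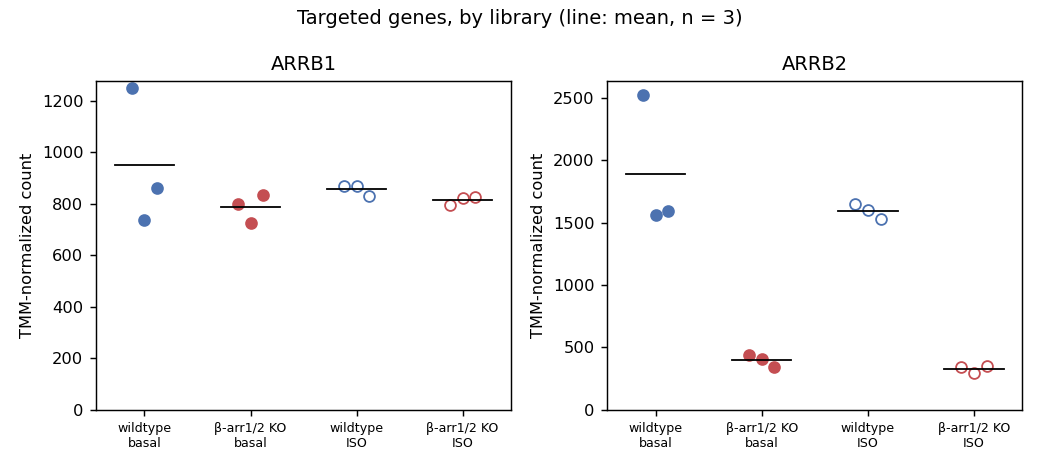
TMM-normalized counts (y axis, linear from 0) of ARRB1 and ARRB2 in each library of wildtype (blue) and β-arrestin1/2 KO cells (red), basal (filled) and ISO (open), with the mean of 3 libraries as a line. ARRB2 separates the lines in both conditions, and ARRB1 does not at basal.

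Of 15519 genes tested, 5208 (33.6%) were called, 2431 (15.7%) higher and 2777 (17.9%) lower in β-arrestin1/2 KO than in wildtype cells. Without wildtype basal 1, 7368 of 15773 (46.7%) were called, 3637 higher (23.1%) and 3731 lower (23.7%), and 4653 (30.0% of 15519) were called in both fits in the same direction. Fitted on the 6 basal libraries alone, without the spread shared by all 18, 1501 of 14586 (10.3%) were called, 727 higher (4.98%) and 774 lower (5.31%). The 5 basal libraries left without wildtype basal 1 gave 6353 calls of 14857 when fitted alone. The GC content of the called genes turned with that library. In the full fit the genes higher in KO cells had a median GC content of 48.5% and those lower 52.3%, and without wildtype basal 1 the medians were 54.0 and 46.6%, against 49.5% for all genes tested. Small differences are therefore given only for members of gene lists, whose shares are read against the 15.7 and 17.9% of all genes, or the 23.1 and 23.7% without wildtype basal 1. In 5817 of the 15519 genes (37.5%) the 3 libraries of 1 line were all above the 3 of the other. The largest and most abundant differences are described first, over genes that had a mean of at least 200 normalized counts in the higher group, no overlap between the 3 and 3 libraries, and a call in both fits in the same direction ("well measured"), as held for 1490 higher (9.60%) and 1961 lower genes (12.6%). A difference of at least 2-fold was found for 247 higher (1.59%) and 233 lower genes (1.50%), at least 4-fold for 57 (0.367%) and 25 (0.161%), and at least 8-fold for 20 (0.129%) and 7 (0.0451%).

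The largest well-measured higher genes included several of epithelial cells. PKP3 (ENSG00000184363, chr11:392614-404908) encodes plakophilin-3, a desmosomal plaque protein, and had 1683, 1563 and 1790 normalized counts in β-arrestin1/2 KO against 36.5, 47.9 and 35.8 in wildtype libraries. The lines were far apart with little spread within either, a 41.9-fold difference (log2 5.39 ± 0.15 SE, adjusted p = 5.1e-13). KLF5, a Krüppel-like transcription factor of proliferating epithelia, had 2575, 2962 and 2866 against 220, 270 and 274 (11.0-fold). ELF3, an epithelium-specific ETS factor, had 295, 222 and 272 against 31.2, 25.6 and 17.9 (10.5-fold). EMP1, an epithelial membrane protein, had 518, 543 and 553 against 45.8, 44.6 and 54.8 (11.1-fold). In each of these 3 genes the lowest KO library was above the highest wildtype library several times over.

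KCTD12 (ENSG00000178695, chr13:76880166-76886390), an auxiliary subunit of GABA-B receptors, was also the most abundant of the genes at least 2-fold higher, with 59619, 60919 and 60687 normalized counts against 2422, 4302 and 4733. The 15.8-fold difference (log2 3.98 ± 0.17 SE, adjusted p = 1.4e-10) was 3.75 on the log2 scale without wildtype basal 1, the lowest of the wildtype libraries. CALB1, the calcium buffer calbindin, had 594, 595 and 632 against 15.6, 24.5 and 21.3 (29.7-fold). CCNA1, cyclin A1, had 523, 540 and 571 against 22.9, 31.2 and 44.8 (16.5-fold). SYN3, synapsin III of the synaptic vesicle, had 1445, 1737 and 1638 against 160, 134 and 169 (10.4-fold). No wildtype library reached a KO library in any of these genes, as the rule requires.

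FAM111B, a protease-like protein, had 2319, 2861 and 2560 against 32.3, 128 and 153 (24.7-fold). HHLA1 was 18.8-fold higher, MYOM3, a sarcomeric M-band protein, 12.3-fold, ALPG, a germ-cell alkaline phosphatase, 11.2-fold (log2 3.47, and 4.15 without wildtype basal 1) and C5, complement component 5, 8.95-fold. ALPG shares sequence with other alkaline phosphatase genes, and its value is uncertain to that extent. OAS3, an interferon-induced 2′-5′-oligoadenylate synthetase, had 955, 1355 and 1361 against 1.04, 149 and 95.1, so that wildtype basal 1 lay far below the other wildtype libraries. The OAS3 log2 difference was 3.91 ± 0.64 SE (adjusted p = 2.1e-04), 3.33 without wildtype basal 1 and 4.70 without wildtype basal 2. KIAA1147 met the rule with 1293, 841 and 560 normalized counts against 0, 0 and 0, at least 274-fold higher against a floor of 3 counts per library. Its counts jumped between 0 and over 1000 inside other groups (1337, 1344 and 0 in wildtype ISO libraries), so this difference cannot be assigned to the line.

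The abundant genes at least 2-fold higher were, beside KCTD12, TPT1, NRARP, EFNB2 and LRRK1. EFNB2, the membrane ligand ephrin-B2, had 12141, 12558 and 12407 against 1282, 1428 and 1557 normalized counts (8.70-fold, log2 3.12 ± 0.08 SE, adjusted p = 5.1e-13). NRARP, a feedback inhibitor and target of Notch, had 17931, 17320 and 19080 against 4186, 4574 and 5563 (3.79-fold). LRRK1, a leucine-rich repeat kinase, was 7.28-fold and TPT1, the translationally controlled tumor protein, 2.23-fold higher. All of these groups were separate, as the rule requires, with the KO libraries tight around their mean.

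Among the lower genes, a group was nearly silent in β-arrestin1/2 KO cells. COL2A1 (ENSG00000139219, chr12:47972965-48004554), the collagen II of cartilage, had 5.25, 6.33 and 13.7 normalized counts in KO against 1647, 1094 and 1212 in wildtype libraries, 156-fold lower (log2 −7.30 ± 0.34 SE, adjusted p = 2.8e-10). BCL6B, a transcriptional repressor, had 8.39, 2.37 and 1.06 against 611, 502 and 603 (145-fold lower, log2 −7.18, and −8.21 without β-arrestin1/2 KO basal 1). PTGDS, prostaglandin D synthase, had 0, 2.37 and 0 against 290, 201 and 204, a wildtype-to-KO ratio of counts of 239 with a 95% interval of 81.9 to 1161 that covers counting error only. LCNL1, the lipocalin-like gene next to PTGDS on chromosome 9, had 0, 0 and 0 against 902, 496 and 564, at least 226-fold lower against a floor of 3 counts per library. Reads of this pair may be shared where transcripts run through. These 4 genes were also low in Gαs KO basal libraries, with means of 17.7, 2.67, 0.312 and 1.40 normalized counts in the order given, so that the wildtype libraries were the ones with high values. The comparison of Gαs KO with wildtype cells uses the same 3 wildtype libraries.

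BST2, the interferon-induced tetherin, had 38.8, 30.9 and 26.4 against 503, 282 and 354 normalized counts (11.8-fold lower). TENM1, a teneurin of neuronal adhesion, had 222, 192 and 197 against 1831, 2514 and 2171 (10.7-fold lower). DDR2, a collagen receptor tyrosine kinase, had at most 61.3 against 280, 394 and 385 (9.23-fold lower). None of these groups overlapped, as the rule requires. In TENM1 and DDR2 wildtype basal 1 was the lowest wildtype library, whereas in BST2 it was the highest. SLC8A1, a sodium-calcium exchanger, was 7.85-fold lower, PLAT, tissue plasminogen activator, 5.46-fold, SOX11, a neural SOX factor, 5.35-fold, and MAP3K15, a kinase of the ASK family, 4.94-fold. ARC, an activity-regulated immediate-early gene of neurons, had 338, 334 and 432 against 2592, 1174 and 1686 (4.94-fold lower). BST2, DDR2 and SOX11 were not low in Gαs KO basal libraries, with means of 821, 687 and 2513 normalized counts, while PLAT was at 444 and ARC at 392. AC099489.1, an annotation that spans other transcripts, was 5.18-fold lower. BCL2L2-PABPN1, a readthrough of 2 neighboring genes whose counts cannot be split from theirs with certainty, had up to 130 normalized counts in a KO library and from 177 in a wildtype library, and its log2 difference of −2.30 (adjusted p = 0.0037) was −3.65 without β-arrestin1/2 KO basal 2 and −0.12 between the ISO libraries.

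**Figure D2:**
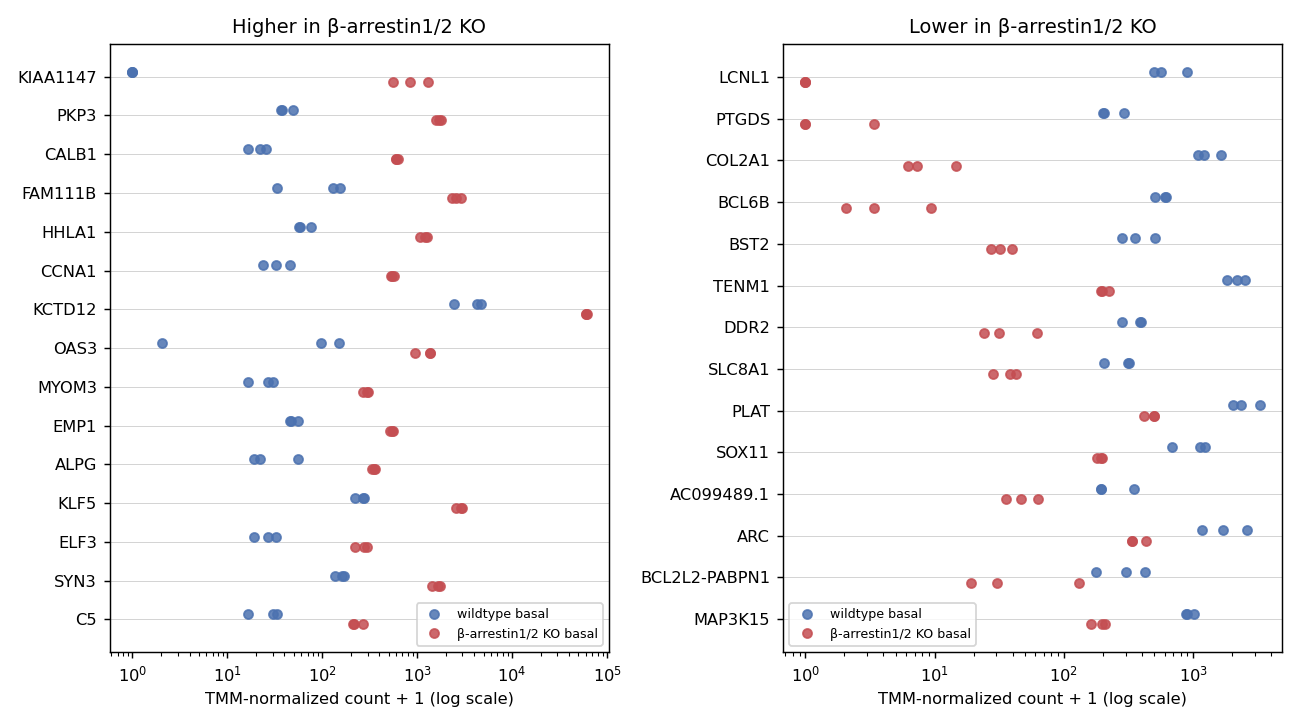
TMM-normalized counts plus 1 (x axis, log scale) in each basal library of wildtype (blue) and β-arrestin1/2 KO cells (red) for the 15 largest well-measured higher genes (left) and 14 of the 15 largest lower genes (right). The colors do not overlap for any gene, as the rule requires; KIAA1147 and LCNL1 are at 0 counts in all libraries of one line.

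Abundant genes at least 2-fold lower included RPL10, FASN, SMS and CKB. FASN, fatty acid synthase, had 13806, 12333 and 12691 against 45137, 23074 and 25043 normalized counts (2.40-fold lower, log2 −1.26, and −0.89 without wildtype basal 1, the highest). SMS, spermine synthase, had 5643, 6573 and 6093 against 15305, 19106 and 18574 (2.89-fold lower). CKB, the brain creatine kinase, was 2.14-fold lower (log2 −1.10, and −0.74 without wildtype basal 1). RPL10, a ribosomal protein with many processed copies that may share its reads, was 2.07-fold lower. The largest well-measured genes that do not encode a protein were SLC44A3-AS1 (log2 2.44), DPY19L2P1 (1.08) and HIST2H2BC (1.03) among the higher and AC004656.1 (−0.99), PHC1P1 (−0.93) and GTF2H2B (−0.92) among the lower, all of them antisense, pseudogene or copy annotations whose reads may belong to a related gene.

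The promoters of some of these genes are shown because their base composition differed widely. Each is the 250 bases before the RefSeq start (GRCh38.p14), read 5′ to 3′ on the gene's strand, with every CG pair in capitals. KCTD12, CCNA1 and EFNB2 lie on chromosome 13 and ELF3 on chromosome 1.
KCTD12 (chr13:76886406-76886655, minus strand): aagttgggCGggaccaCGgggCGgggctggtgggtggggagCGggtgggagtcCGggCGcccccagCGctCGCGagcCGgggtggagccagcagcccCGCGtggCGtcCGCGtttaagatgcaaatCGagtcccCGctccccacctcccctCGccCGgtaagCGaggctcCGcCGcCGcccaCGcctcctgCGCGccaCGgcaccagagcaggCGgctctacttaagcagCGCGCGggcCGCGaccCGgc
CCNA1 (chr13:36431705-36431954, plus strand): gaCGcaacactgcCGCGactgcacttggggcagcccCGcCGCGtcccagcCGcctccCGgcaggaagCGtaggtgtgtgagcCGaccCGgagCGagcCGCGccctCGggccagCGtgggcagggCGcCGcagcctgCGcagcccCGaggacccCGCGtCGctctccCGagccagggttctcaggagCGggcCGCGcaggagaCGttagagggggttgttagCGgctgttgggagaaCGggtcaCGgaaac
EFNB2 (chr13:106535663-106535912, minus strand): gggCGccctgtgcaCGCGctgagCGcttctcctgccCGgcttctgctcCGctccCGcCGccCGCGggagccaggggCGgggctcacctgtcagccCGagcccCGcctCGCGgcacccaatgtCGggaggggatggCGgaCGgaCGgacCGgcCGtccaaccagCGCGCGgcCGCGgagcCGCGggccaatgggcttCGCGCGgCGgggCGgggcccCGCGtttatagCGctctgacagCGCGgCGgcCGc
ELF3 (chr1:202010337-202010586, plus strand): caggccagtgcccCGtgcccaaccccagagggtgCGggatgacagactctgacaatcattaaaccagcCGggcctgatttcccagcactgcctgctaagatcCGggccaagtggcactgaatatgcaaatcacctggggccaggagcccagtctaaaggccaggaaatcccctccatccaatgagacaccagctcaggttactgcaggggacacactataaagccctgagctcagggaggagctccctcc
The first 3 held 34, 31 and 40 CG pairs and ELF3 held 4, against a median of 21.0 over the promoters of 11317 genes tested. KLF5, also on chromosome 13 and not shown, held 3 at the first of its 2 listed starts. EFNB2 is not among the 15 largest higher genes. Of the 15 largest higher genes 9 had a promoter in the RefSeq table, with a median of 10.0 CG pairs (2 to 34), and of the 15 largest lower genes 6, with a median of 4.50 (0 to 8). The counts describe these windows and were not tested.

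Epithelial genes were then counted as a list of 55, which was drawn up after the values of PKP3 and others had been seen and is no independent evidence of their direction. Of 44 tested, 23 were higher (52.3%, against 15.7% of all genes) and 4 lower (9.09%, against 17.9%), with a median log2 difference of 0.53 against 0.02 over all genes. Without wildtype basal 1 the counts were 25 and 3, and in the fit on the 6 libraries alone 14 and 1. EPS8L2, an actin regulator, had 2023, 2253 and 2146 against 309, 242 and 198 normalized counts (log2 3.10, adjusted p = 4.1e-10). LSR, of tricellular junctions, was higher by 2.52 on the log2 scale, MAL2, of apical transport, by 2.48, SPINT1, a protease inhibitor, by 2.26, and DSP, the desmosomal plaque protein, by 0.71. MAL2 had 47.9, 219 and 198 in the wildtype libraries, with wildtype basal 1 the lowest. The 4 lower members were KRT18, PKP2, CGN and SPINT2, with log2 differences of −0.49, −0.52, −0.36 and −2.20. KRT18 was at −0.21 and CGN at −0.19 without wildtype basal 1. SPINT2 stayed under 44 normalized counts in every library. The calls on CGN and SPINT2 were lost without wildtype basal 1 or β-arrestin1/2 KO basal 2, and that on CGN also without β-arrestin1/2 KO basal 3. The keratin KRT8 had a log2 difference of −0.15 (adjusted p = 0.39).

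Adhesion genes overlapped that list. Of 27 integrins and cadherins tested, 11 were higher (40.7%) and 3 lower (11.1%), and 13 and 3 without wildtype basal 1. CDH1, E-cadherin, had 232, 226 and 226 normalized counts against 10.4 to 55.8 (8.03-fold, log2 3.01 ± 0.42 SE, adjusted p = 4.8e-05, and 3.95 without wildtype basal 2). All KO libraries were above all wildtype libraries, as the rule requires, and the wildtype libraries varied among themselves. CDH4, R-cadherin, was higher by 1.17 on the log2 scale, CDH3, P-cadherin, by 1.07, and ITGA3, the laminin-binding integrin α3, by 1.19. The 3 lower members, ITGA4 (−0.56), ITGB1 (−0.44) and ITGB5 (−0.35), were abundant, and only 1 of them was called when any 1 of the β-arrestin1/2 KO libraries was left out. CDH1 was also 1 of 16 markers of other cell types. Summed without CDH1, the other 15 had 880 to 926 normalized counts in KO and 665 to 1116 in wildtype libraries, most of it COL1A1, and CD3E, HBB and MYH1 were at 0 in all 6.

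Extracellular matrix genes moved both ways, with 16 of 43 higher (37.2%) and 12 lower (27.9%), and 19 and 14 without wildtype basal 1. LAMB3, a laminin chain of epithelial basement membrane, had 631, 742 and 763 normalized counts against 128, 100 and 96.2 (log2 2.71 ± 0.14 SE, adjusted p = 7.8e-10). COL9A3 was higher by 1.89, COL5A1 by 1.26 and AGRN, agrin, by 1.17 on the log2 scale. Beside COL2A1, FBN1, fibrillin-1, was lower, with 551, 573 and 506 against 1173, 1383 and 1260 (log2 −1.23, adjusted p = 8.9e-08). The laminin chains were split. LAMB3, LAMA2 (1.74), LAMB2 (1.15), LAMC3 (0.99), LAMA5 (0.63), LAMA3 (0.42) and LAMC1 (0.18, with its call lost without wildtype basal 3 or any 1 KO library) were higher, and LAMA4 (−1.02), LAMA1 (−0.77) and LAMB1 (−0.68) lower.

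Most of the glycolysis and hypoxia-inducible genes tested were lower. Of 31, 19 were lower (61.3%, against 17.9% of all genes), 1 was higher (3.23%, against 15.7%) and 11 were not called, with a median log2 difference of −0.51 against 0.02 over all genes. In the fit on the 6 libraries alone 11 were lower and 1 higher. Without wildtype basal 1 the counts were 19 lower and 4 higher with a median of −0.42, and between the ISO libraries 16 and 4 with a median of −0.36. HK2, the first enzyme of glycolysis, had 364, 321 and 377 normalized counts against 1422, 971 and 1117 (log2 −1.73 ± 0.14 SE, adjusted p = 1.9e-07). PGK1, phosphoglycerate kinase on the X chromosome, had 4515, 4531 and 4478 against 9899, 8401 and 8408 (log2 −0.98). NDRG1, a gene raised by hypoxia, had 3140, 3383 and 3551 against 12703, 8794 and 9696 (log2 −1.63). In all 3 genes wildtype basal 1 was the highest library, and wildtype basal 2 and 3 were still well above every KO library. CA12, a carbonic anhydrase, was lower by 1.05 and ALDOC, aldolase C, by 1.02. The higher member was SLC2A3, the glucose transporter GLUT3, with 3101, 3251 and 3496 against 512, 632 and 920 (4.77-fold, log2 2.25), while SLC2A1, or GLUT1, was at −0.53 (adjusted p = 0.022), a call lost without wildtype basal 1 or 3 or β-arrestin1/2 KO basal 1 or 2. For the abundant ENO1, GAPDH, ALDOA and PKM the log2 differences were −0.65, −0.72, −0.78 and −0.63 in the full fit and −0.45, −0.47, −0.45 and −0.41 without wildtype basal 1.

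Genes of the integrated stress response and of glutathione metabolism were mostly lower where called. Of 27 stress response genes, 13 were lower (48.1%) and 1, DDIT4, higher (3.70%), and 8 were lower without β-arrestin1/2 KO basal 1 and 15 without wildtype basal 1. The call on DDIT4 (0.57, adjusted p = 0.037) was lost without any 1 library other than β-arrestin1/2 KO basal 2 and wildtype basal 1, and without the latter 3 members were higher. DDIT3, the transcription factor CHOP, had 293, 291 and 254 normalized counts against 735, 474 and 560 (log2 −1.08), and TRIB3, its pseudokinase target, was at −1.07 and −0.80 without wildtype basal 1. ATF4, the main activator of these genes, had 962, 838 and 878 against 1622, 1534 and 1766 (log2 −0.88 ± 0.12 SE, adjusted p = 3.3e-05). Between the ISO libraries ATF4 was at 0.28, and 8 of the 27 stress response genes were lower and 4 higher. The median log2 difference of this list was −0.24 at basal and −0.16 between the ISO libraries. Of 30 glutathione and NRF2 target genes 11 were lower (36.7%) and 2 higher (6.67%), and 13 and 4 without wildtype basal 1. SRXN1, sulfiredoxin, had 463, 467 and 485 against 1314, 1051 and 1061 (log2 −1.28, adjusted p = 4.7e-07), and MGST1, a membrane glutathione transferase, was at −1.14. The higher members were GSTM4 (0.71) and GPX3 (3.38), the latter with means of 107 and 10.2 normalized counts.

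Genes nearest to the receptor were called in both directions. Among 12 arrestins and receptor kinases, TXNIP (0.85) and ARRDC1 (0.49), both α-arrestins, were higher on the log2 scale, and ARRB2, the α-arrestin ARRDC2 (−0.71) and the receptor kinases GRK3 (−0.77) and GRK5 (−0.53) lower, the last with its call lost without wildtype basal 1 or β-arrestin1/2 KO basal 3. GRK2, which phosphorylates agonist-occupied receptors, with means of 2869 and 2401 normalized counts, was at 0.26 (adjusted p = 0.065) and GRK6 at −0.12 (adjusted p = 0.51). The call on ARRDC1 was lost without wildtype basal 2 or 3, and without wildtype basal 1 the list had 4 higher members. Of 27 clathrin endocytosis genes 4 were higher (14.8%) and 5 lower (18.5%), close to the shares over all genes, with AP2B1, the AP-2 subunit that β-arrestins bind, at 4069, 4186 and 4210 against 6768, 7241 and 6712 (log2 −0.73, adjusted p = 2.3e-07). With wildtype basal 1 left out, 11 were higher and 4 lower. Of 19 genes of the Gs and cAMP pathway 1, ADCY5, was higher (0.64) and 4 lower, namely PKIA (−1.17), an inhibitor of protein kinase A, RAPGEF3 (−1.49, and −0.83 without wildtype basal 1), an exchange factor opened by cAMP, ADCY3 (−0.91) and GNAL (−0.59), and without wildtype basal 1, 5 were higher and 6 lower. The call on ADCY3 was lost without wildtype basal 1 or β-arrestin1/2 KO basal 1 or 3. GNAS, which encodes Gαs, was at 0.27 (adjusted p = 0.13). Of 15 cAMP phosphodiesterases, enzymes that break cAMP down, 5 were lower (33.3%), namely PDE7B (−1.85, and −2.83 without β-arrestin1/2 KO basal 1), PDE2A (−1.55), PDE1B (−1.04), PDE4D (−0.53) and PDE7A (−0.42). Leaving out single libraries gave 2 to 8 lower phosphodiesterases, with 8 without wildtype basal 1, 3 without β-arrestin1/2 KO basal 1 or wildtype basal 3, and 2 without any other.

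cAMP-CREB and immediate-early targets, which answer Gs-coupled receptor stimulation, differed in both directions before any agonist was given. Of 28 tested, 9 were higher (32.1%) and 6 lower (21.4%). NR4A1, an orphan nuclear receptor, had 889, 777 and 962 normalized counts against 3886, 2219 and 2975 (log2 −1.79 ± 0.15 SE, adjusted p = 3.0e-07). CREM, a CREB-family factor that yields the repressor ICER, had 401, 308 and 373 against 804, 910 and 912 (log2 −1.28), and PER1, a clock gene, had 621, 594 and 578 against 1753, 956 and 1165 (log2 −1.11). NR4A3 (−1.68), NR4A2 (−0.59) and ATF3 (−0.40) were the other lower members. Higher were KLF10 (1.24), IER3 (1.20), IER5 (0.94), JUNB (0.83), BTG2 (0.63), KLF6 (0.52), BTG1 (0.46), FOSB (0.45) and KLF4 (0.28). The call on FOSB was lost without β-arrestin1/2 KO basal 2, and that on KLF4 without any 1 library other than wildtype basal 1. FOS was at 0.27 (adjusted p = 0.25) and EGR1 at 0.11 (adjusted p = 0.58). Without wildtype basal 1, 13 were higher and 6 lower.

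The promoters of JUNB and BTG2, higher in KO cells, and of FOS, which was not called, are shown with the half-site of the cAMP response element, TGACG or on the other strand CGTCA, in capitals.
JUNB (chr19:12791236-12791485, plus strand): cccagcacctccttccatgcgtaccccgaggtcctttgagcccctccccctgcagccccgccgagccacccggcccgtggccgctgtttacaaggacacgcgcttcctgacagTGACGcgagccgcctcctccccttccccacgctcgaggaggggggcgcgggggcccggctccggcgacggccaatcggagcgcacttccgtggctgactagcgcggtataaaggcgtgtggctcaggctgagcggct
BTG2 (chr1:203305269-203305518, plus strand): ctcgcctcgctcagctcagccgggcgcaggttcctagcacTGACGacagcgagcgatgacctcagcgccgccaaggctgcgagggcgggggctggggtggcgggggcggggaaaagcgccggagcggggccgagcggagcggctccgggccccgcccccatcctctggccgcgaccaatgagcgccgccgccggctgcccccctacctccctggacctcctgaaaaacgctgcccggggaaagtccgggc
FOS (chr14:75278578-75278827, plus strand): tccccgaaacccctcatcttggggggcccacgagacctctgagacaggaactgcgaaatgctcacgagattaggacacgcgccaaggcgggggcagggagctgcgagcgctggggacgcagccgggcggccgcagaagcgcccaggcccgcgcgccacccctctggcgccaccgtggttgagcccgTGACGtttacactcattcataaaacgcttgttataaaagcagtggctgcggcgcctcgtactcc
Each held 1 such match in the 250 bases before its RefSeq start. At least 1 was in 14 of the 22 members of the list with a promoter in the table, against 28.5% of the 11317 promoters. The list was drawn up as cAMP-CREB and immediate-early targets, so this share may follow from that choice. It pools higher, lower and uncalled members and does not compare the lines. IER5 and KLF6, both higher in KO cells, and PER1, lower, have 1 start each in the table and held 0 matches. The first listed starts of NR4A1 and CREM, both lower, also held 0, of 2 and 7 starts. The full palindrome TGACGTCA, which contains the half-site on both strands, was in 1 of the 22 and in 2.67% of all promoters.

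Growth factor and developmental genes were called in both directions, several lists at shares near those of all genes. Of 33 TGF-β and BMP genes, 10 were higher (30.3%) and 5 lower (15.2%). TGFB1, a ligand, was at 1260, 1106 and 1367 against 477, 293 and 330 normalized counts (log2 1.76, adjusted p = 4.9e-07), its inhibitory target SMAD7 at 1.15 and the BMP target ID1 at 1.00. Without β-arrestin1/2 KO basal 3, 6 were higher, and without wildtype basal 1, 10 were higher and 8 lower. The lower members included the ligand genes TGFB3 (−1.01), INHBA (−1.12) and GDF11 (−0.44), each called with any 1 of the basal libraries left out. Of 27 Hedgehog and Notch genes 4 were higher (14.8%) and 8 lower (29.6%), and 9 and 6 without wildtype basal 1, while 4 were lower without β-arrestin1/2 KO basal 2. LFNG, a fringe enzyme that modifies Notch, had 319, 223 and 272 against 72.9, 59.1 and 76.1 (log2 1.96). The Notch targets HEY1 and HES1 were at 0.58 and 0.43, beside NRARP. The lower members included the fringe gene MFNG (−3.68, and −2.32 without wildtype basal 1), HES6 (−0.67), HEY2 (−0.39), HHIP (−0.84) and PTCH1 (−0.48). The calls on HES6 and HEY2 were lost without wildtype basal 1 or β-arrestin1/2 KO basal 1 or 2, among others for HEY2, and that on HHIP without β-arrestin1/2 KO basal 2 or wildtype basal 2. Of 30 WNT genes 7 were higher (23.3%) and 6 lower, with LGR5 at 1.28 and ZNRF3 at −0.88, and 12 and 6 without wildtype basal 1. Of 20 YAP-TEAD targets 5 were called each way, and 6 without wildtype basal 1. Of 20 ERK feedback genes 3 were higher and 5 lower, among them SPRY1 (−1.30), an inhibitor of receptor tyrosine kinase signaling, and 6 and 6 without wildtype basal 1. Of 25 cholesterol synthesis genes 4 were higher and 3 lower, with MSMO1 at 0.98 and EBP at −0.92, or −0.52 without wildtype basal 1. Without wildtype basal 1 these were 10 and 6, and 5 were lower without wildtype basal 2. The shares over all genes were 15.7% higher and 17.9% lower in the full fit and 23.1 and 23.7% without wildtype basal 1.

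Of 35 cell cycle genes 9 were higher (25.7%) and 8 lower (22.9%), and 11 and 8 without wildtype basal 1, against the same shares. Inhibitors of cyclin-dependent kinases were among the higher, with CDKN1C at 729, 634 and 614 against 256, 126 and 198 normalized counts (log2 1.77), CDKN2B at 677, 631 and 775 against 237, 234 and 257 (log2 1.51), CDKN2C at 0.97, CDKN1B at 0.77 and CDKN1A at 0.55. Among the cyclins, CCNE2 was higher (1.16), and CCND2 (−1.17) and CCND1 (−0.37) were lower. Without wildtype basal 2, 14 cell cycle genes were lower. Of 12 imprinted genes, 4 were higher (33.3%) and 1, IGF2R (−0.34), lower (8.33%), and 5 and 1 without wildtype basal 1. IGF2, the growth factor, had 1055, 866 and 812 against 278, 146 and 181 (4.51-fold, log2 2.17, adjusted p = 1.4e-06), and CDKN1C, PEG10 (1.04) and BLCAP (0.37) were the others. The KO and wildtype libraries were separate in IGF2 and CDKN1C, as the rule for well-measured genes requires. IGF2R lost its call without β-arrestin1/2 KO basal 2 or 3 or wildtype basal 1.

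Of 32 neuronal genes, 12 were higher (37.5%, against 15.7% of all genes) and 8 lower (against 17.9%), and 13 and 9 without wildtype basal 1. L1CAM, a neural adhesion molecule, had 764, 791 and 761 normalized counts against 273, 169 and 138 (log2 1.99). NEFL, the light neurofilament, was at 1.03 and MAP2 at 1.75, while GAL (−1.03), UCHL1 (−0.86) and SYP (−0.75) were lower. The largest lower differences, of SCG2 (−4.21) and SCG5 (−2.83), did not meet the rule for well-measured genes. The call on SCG5 was lost without β-arrestin1/2 KO basal 2. Among 52 guidance genes 11 were higher (21.2%) and 7 lower (13.5%), and 22 and 7 without wildtype basal 1. Beside EFNB2, UNC5A, a netrin receptor, was at 1.91, and EPHA7 at −1.03. Of 34 ion channel genes 9 were higher (26.5%) and 5 lower (14.7%), with KCNC1 at 1.28 and KCNK5 at −0.75, and 12 and 5 without wildtype basal 1. Of 37 HOX genes 5 were higher (13.5%) and 7 lower (18.9%), near the shares over all genes, with HOXA7 at 1.71 and HOXB9 at −0.89, and 4 and 7 without wildtype basal 1. Of the 13 HEK293 and kidney markers 3 were higher (23.1%) and 4 lower (30.8%), with EYA1, a renal developmental factor, at 135, 123 and 141 against 430, 515 and 488 (log2 −1.84). Without β-arrestin1/2 KO basal 1 or 3 the lower members were 3 for ion channels and 4 for HOX genes, and without wildtype basal 1, 6 HEK293 and kidney markers were higher and 4 lower. Of 29 interferon and antigen presentation genes 4 were higher (13.8%) and 1, BST2, lower (3.45%). HLA-B, a class I heavy chain with near-identical copies that make its value uncertain, was at 2.31, TAPBP, which loads peptides on class I, at 1.65, and IRF1 at 0.67, the last with its call lost without any 1 library other than wildtype basal 1. In this list 9 were higher and 2 lower without wildtype basal 1, and 2 and 3 were lower without β-arrestin1/2 KO basal 3 and wildtype basal 2. Of 31 cancer-testis and germline genes 2 passed the filter, and MAGEC2 was lower, with means of 1.23 and 26.1 normalized counts.

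**Figure D3:**
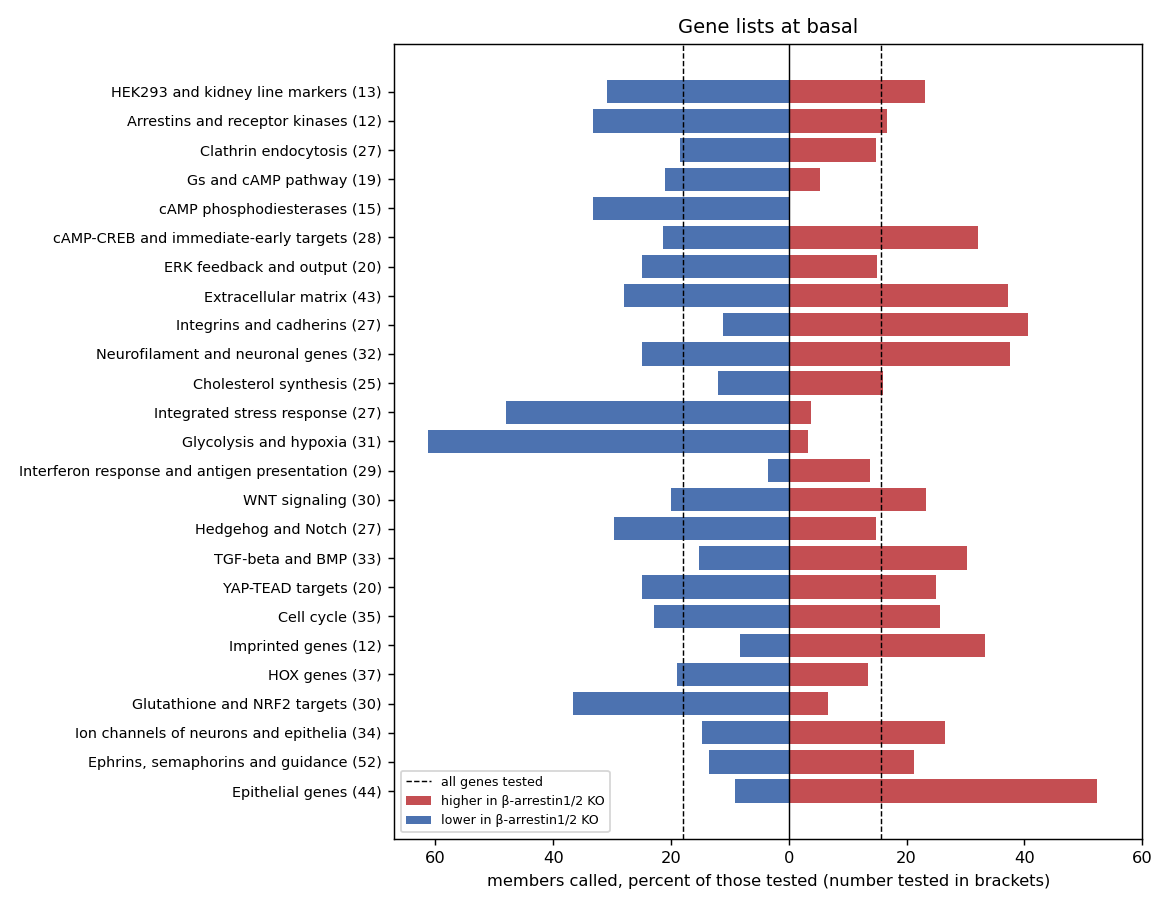
Share of the tested members of each gene list called higher (red, to the right) or lower (blue, to the left) in β-arrestin1/2 KO than in wildtype basal libraries, in percent, for the 25 lists with at least 10 tested members. Dashed lines mark the shares over all genes, 15.7% higher and 17.9% lower; glycolysis and hypoxia reaches 61.3% lower and the epithelial list 52.3% higher.

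The share of genes called varied between chromosomes. Over 11516 genes with a mean of at least 100 normalized counts, 15.8% were higher and 21.8% lower. On chromosome 22, 66.2% of 287 genes were lower, with a median log2 difference of −0.49, or −0.34 without wildtype basal 1 and −0.43 between the ISO libraries. On the X chromosome 205 of 410 genes were lower (median −0.37) and on chromosome 17 48.8% of 695 (median −0.31). On chromosome 13, 41.8% of 201 genes were higher (median 0.28, and 0.13 without wildtype basal 1), and on chromosomes 11 and 9 the shares were 29.8 and 29.1%. Within chromosome 13 the region chr13:40000001-50000000, which holds TPT1, had 31 of 39 genes higher, with medians of 0.70 in the full fit, 0.51 without wildtype basal 1 and 0.64 between the ISO libraries. In chr10:30000001-40000000, which holds CREM, 16 of 19 genes were lower, and in chrX:20000001-30000000, which holds SMS, 12 of 18, with medians of −0.77 and −0.86. In Gαs KO cells, compared with the same wildtype libraries, the median was −0.04 on chromosome 22, −0.29 on chromosome 17, 0.74 in the region of chromosome 13 and −1.05 in that of the X chromosome. Some named genes went against their neighbors. SYN3 was higher, whereas 57 of 90 genes in chr22:30000001-40000000 were lower, and L1CAM was higher, whereas 29 of 54 in chrX:150000001-160000000 were lower. In chr13:70000001-80000000, which holds KCTD12, 8 of 20 genes were higher and 4 lower, whereas without wildtype basal 1 more were lower than higher. Copy number was not measured.

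**Figure D4:**
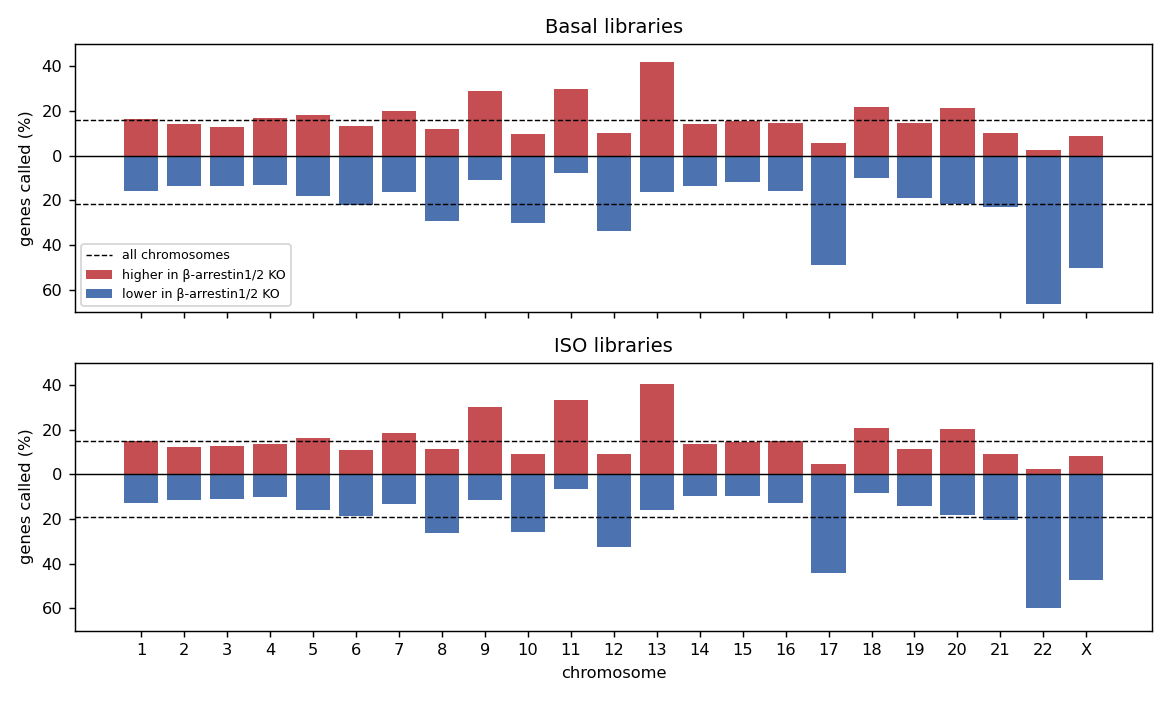
Percent of genes on each chromosome (x axis) called higher (red, up) or lower (blue, down) in β-arrestin1/2 KO than in wildtype cells, in the basal libraries (top) and the ISO libraries (bottom). Dashed lines give the shares over all chromosomes; chromosome 22 reaches 66.2% lower and chromosome 13 41.8% higher at basal.

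The ISO libraries of the same lines share no library with the basal comparison and do not include wildtype basal 1. Their test still used the spread shared by all 18 libraries, with wildtype basal 1 among them. Between the ISO libraries 4653 genes (30.0%) were called, 2215 higher (14.3%) and 2438 lower (15.7%) in the KO line. In both conditions 3612 were called in the same direction, which is 69.4% of the basal and 77.6% of the ISO calls, with 16 in opposite directions. Of the 480 well-measured genes that differed at least 2-fold at basal, 456 were called in the same direction between the ISO libraries and 4 had the opposite sign. PKP3 was at 5.25, KCTD12 at 4.05, COL2A1 at −6.42, HK2 at −1.51, CDH1 at 3.16 and ARRB2 at −2.28 on the log2 scale. NR4A1 was a gene whose basal difference was not found after ISO, with 9906, 8058 and 9202 normalized counts in KO and 10768, 10316 and 11268 in wildtype cells (log2 −0.25).

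**Figure D5:**
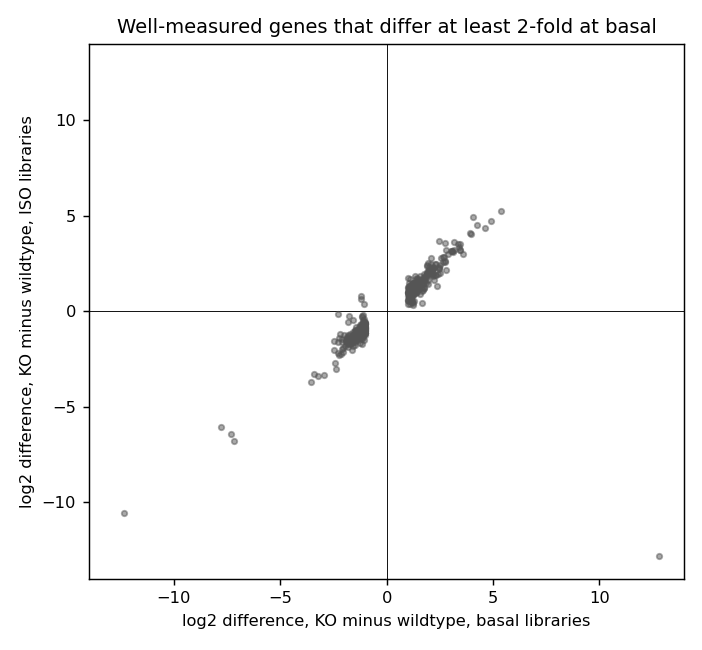
Log2 difference, β-arrestin1/2 KO minus wildtype, in the basal libraries (x axis) and in the ISO libraries (y axis) for the 480 well-measured genes that differ at least 2-fold at basal. The 2 values are within 1 of each other for 466 genes, and of the 14 others 10 have the same sign and 4 the opposite one, the farthest being KIAA1147 at the lower right.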

How the data were processed

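Poly(A) RNA was sequenced in 18 libraries, 3 for each of 6 groups given by the labels, and 6 enter the comparison here. The authors deposited expected counts, the estimated read pairs that Salmon 1.7.0 assigned to 184844 transcripts (GRCh38), not normalized. The authors' own tests with DESeq2 were not used. Here transcripts were joined by Ensembl identifier to GENCODE release 29 (161798 transcripts, 34255 genes, 92.9 to 93.7% of counts), summed and rounded. Totals were 17908597 to 25019834 per library. edgeR 4.0.16 (R 4.3.3) scaled libraries by TMM, filtered genes with filterByExpr by group and fitted a quasi-likelihood model with 1 coefficient per group to all 18 libraries. P-values were adjusted by Benjamini–Hochberg over the 15519 genes, and a standard error is the log2 difference divided by the square root of F. The labels number the replicates as biological replicates without saying what they share. P-values therefore measure only the spread between these libraries, which may be smaller than that between independent experiments.

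Named genes were, among the well measured, the 15 largest differences of protein-coding genes each way, the 5 most abundant each way with an absolute log2 difference of at least 1, the 3 largest other genes each way, the targeted genes, and up to 6 members of each of 26 lists, plus further called members named for their role. Members and lists were chosen with earlier results of these data known, and the epithelial list after these values were seen. Alternatives were DESeq2 size factors, upper-quartile scaling, DESeq2 1.42.0 Wald tests, 2 other filters, only the libraries compared, a replicate block, offsets for GC content and length (lowess span 0.3), each replicate left out, adjusted p under 0.01, an absolute log2 difference of at least 1, and, added after seeing the data, only the 5 basal libraries without wildtype basal 1. The steps were tested on simulated counts. Promoters are RefSeq's (GRCh38.p14). Python 3.11.15 with pandas 2.3.3 and matplotlib 3.10.9 made the summaries. The result for 1 gene that met the naming rule is not reported here.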

Additional observations from a re-analysis of the deposited data

Results flagged for a closer look

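In 4 of the genes named here, the gap separating the 2 lines changed from the basal to the ISO libraries. An interaction term (line by ISO) in edgeR's quasi-likelihood fit gave the p, adjusted by Benjamini–Hochberg. For NR4A1 the log2 difference was −1.79 at basal and −0.25 after ISO, a change of 1.54 (adjusted p = 0.0033). For ATF4 it was −0.88 at basal, lower in 3 of 3 KO libraries, and 0.28 after ISO, a change of 1.16 (adjusted p = 0.005). For DUSP1, a phosphatase of MAP kinases, it was 0.38 at basal and 1.42 after ISO, a change of 1.04 (adjusted p = 0.0057), with means of 24967 and 9315 normalized counts in KO and wildtype ISO libraries. The basal call on DUSP1 was lost with only the libraries compared. For KIAA1147 it was 12.81 at basal and −12.80 after ISO, a change of −25.61 (adjusted p = 0.016), and both values rest on libraries listed at 0 counts beside libraries at 560 to 1344 normalized counts.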

How the results depend on the processing

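With only the libraries compared, in place of a spread shared by all 18, 1501 genes were called at basal (727 higher and 774 lower). Without wildtype basal 1, the 5 basal libraries left gave 6353 calls when fitted alone (3098 higher and 3255 lower). Between the ISO libraries fitted alone 7221 were called (3501 and 3720). The cause of these changes was not tested. In the fit on the 6 basal libraries 4.98% of all genes were higher and 5.31% lower. There 11 glycolysis genes were lower and 14 epithelial genes higher, of 31 and 44 tested in the full fit. Of 27 stress response genes 4 were lower, and of 30 glutathione genes 2, near the share over all genes. Of 43 extracellular matrix genes 9 were higher and 8 lower, and of 27 integrins and cadherins 6 and 0. At an adjusted p under 0.01 the basal counts were 3326 (1489 higher and 1837 lower) and the ISO counts 2961 (1353 and 1608), and with an absolute log2 difference of at least 1 they were 1256 (790 and 466) and 1110 (696 and 414). Offsets for GC content and length gave 7511 calls at basal and 7178 after ISO (3634 higher), and with a replicate block as well 7476 and 7139 (3599 higher). Leaving out each replicate gave 4103 to 7368 basal calls, the highest without wildtype basal 1, and 3611 to 3864 ISO calls. The ARRB1 difference ran from −0.42 to −0.02 and that of ARRB2 from −2.37 to −1.98, and the ARRB1 call appeared only without wildtype basal 2. The replicate block alone gave 5133 basal calls. Same-numbered libraries of the 2 lines had low positive correlations of their deviations, 0.089, 0.145 and 0.027. Of these libraries, 3 of 3 KO and 2 of 3 wildtype libraries correlated best with their own number. The labels state no pairing, and the main fit treated the libraries as unpaired, with the replicate block as the alternative. Of the 164 genes that the naming rule gave, 111 were called in every alternative, and over 2624 alternatives 76 calls were lost and 0 reversed, 53 of the losses with only the libraries compared. Well-measured genes were selected by calls in the full fit and without wildtype basal 1 and by libraries that do not overlap. These counts are therefore no independent check of the named genes. IRF1 and KCNQ5 lost their call without any one replicate other than wildtype basal 1, and PHLDA1 without most of them. Of 177 further called list members, 65 lost their call without at least 1 library. List members under the filter on low counts could not be tested.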
